A study of Mus musculus with 16 samples.

Results

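Type I interferons, their receptor and the transcription factors that act before and after it were followed in mouse lung fibroblasts in which a lysyl oxidase had been targeted with a small interfering RNA (siRNA). The set held 9 genes of the 34650 gene names on the array: Ifnb1, Ifna4, Ifnar1, Ifnar2, Irf1, Irf3, Irf7, Irf9 and Stat2. They were chosen by name, and every non-control probe carrying one of these names was used, which gave 12 of 55681 probes. Testing required a signal well above background on each of the 4 arrays in some group, which 11 of the 12 probes met. The 12th, a second Irf1 probe, reached that signal on a single siLox array.

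Primary lung fibroblasts that had been passaged at least 3 times received a scrambled siRNA in the scr group. The siLox, siLoxL1 and siLoxL2 groups received siRNAs to Lox, Loxl1 and Loxl2, genes of enzymes that cross-link collagen and elastin. RNA was collected 48 hours later and hybridised to 4 one-colour arrays per group. Every group, the control included, had therefore received an siRNA, and untransfected cells were not analysed here. The strain, sex and age of the mice and the siRNA sequences are not given in the sources used here, and neither is whether replicates came from separate cultures, so p-values measure the spread between these samples, which may be technical. The sample labels describe knockdown, although the title of the series mentions exogenous expression.

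The scr and siLox arrays lay on slide 1, and the siLoxL1 and siLoxL2 arrays on slide 2. Within a slide each group filled a row of its own, so row and siRNA cannot be told apart, and between slides siRNA and slide cannot be told apart. Between 49.2% and 52.3% of spots were well above background on slide 1, and between 60.4% and 63.1% on slide 2. Lox in siLox was at 13.2% of its scr level, and Loxl1 in siLoxL1 was at 44.9% of its siLoxL2 level. In siLox, Loxl2 and Loxl1 also passed as lower, at 61.0% and 71.3% of scr (limma, adjusted p = 0.0282 and 0.0395). Of all probes, 11.5% passed as lower there. Loxl2 did not pass the test between siLoxL2 and siLoxL1 (limma, adjusted p = 0.0645). All 9 fibroblast markers were above background in every group, and so were all 11 macrophage and leukocyte markers, while the epithelial markers Epcam, Cdh1 and Sftpc were below background on every array. Of the other epithelial markers, Krt18 was above background on all 16 arrays, and Scgb1a1 on 4 arrays of every group except siLox, where 2 were. In bulk RNA, fewer cells of a type and less RNA per cell cannot be told apart.

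Cells that sense foreign nucleic acid activate IRF3 and NF-kB, which together switch on the interferon beta gene Ifnb1. Secreted interferons bind a receptor made of IFNAR1 and IFNAR2, and the kinases on that receptor activate STAT proteins. STAT2 takes part with IRF9 in a complex, ISGF3, that binds interferon-stimulated response elements (ISRE) and induces many genes, among them Irf7, Irf9 and Stat2 themselves. IRF7 in turn drives most interferon alpha genes, so that the pathway amplifies itself. IRF1 is induced through a GAS element and through NF-kB.

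The promoters of Ifnb1, Ifna4, Stat2 and Irf1 are shown because they hold matches to these elements. RefSeq (GRCm38.p6) gave promoters for all 9 genes, and 250 bases before each start were searched on both strands. The IRF core was searched as AANNGAAA, the ISRE as GAAA, any 2 bases and GAAA again, the GAS element as TTCNNNGAA and the kB site by its usual consensus. The first 2 overlap, since an ISRE contains an IRF core match where the letters allow. Of all 32851 promoters, 21.3% held an IRF core, 2.98% an ISRE, 7.02% a GAS element and 7.25% a kB site. Capitals mark the matches in each window of 100 bases, read 5′ to 3′ along the gene. The Ifnb1 window (chr4:88522855-88522954, minus strand) and the Ifna4 window (chr4:88841656-88841755, plus strand) run from 160 to 61 bases before the start, the Stat2 window (chr10:128270248-128270347, plus strand) from 250 to 151 and the Irf1 window (chr11:53769914-53770013, plus strand) from 100 to 1.
Ifnb1 promoter: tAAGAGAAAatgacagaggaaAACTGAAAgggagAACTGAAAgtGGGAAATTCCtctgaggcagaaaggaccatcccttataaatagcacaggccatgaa
Ifna4 promoter: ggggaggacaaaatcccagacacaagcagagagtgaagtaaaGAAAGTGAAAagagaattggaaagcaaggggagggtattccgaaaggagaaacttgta
Stat2 promoter: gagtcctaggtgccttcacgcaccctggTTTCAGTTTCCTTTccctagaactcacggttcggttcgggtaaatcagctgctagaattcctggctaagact
Irf1 promoter: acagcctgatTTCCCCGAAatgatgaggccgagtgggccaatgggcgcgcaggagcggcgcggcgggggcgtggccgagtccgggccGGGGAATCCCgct

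In Ifnb1, 3 IRF core matches begin 159, 139 and 126 bases before the start and a kB match follows at 116. Ifna4 has ISRE matches at 208 and 118, of which the window shows the second. Stat2 has an ISRE match on the minus strand at 222, overlapping 2 IRF core matches. Irf1 holds no IRF core match in this window and instead has a GAS match at 90 and a kB match at 13. A GAS match lies 214 bases before the start of Ifnar2, and the letters searched are not in these windows of Irf3, Irf7, Irf9 or Ifnar1.

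The probes themselves are 60 bases long, and the Irf7 and Ifna4 probes are shown because their signals changed most between slides beside that of Ifnb1. The Irf7 probe (A_51_P421876) lies on mm9 at chr7:148450664-148451014, minus strand, a span of 351 bases that is longer than the probe. The Ifna4 probe (A_51_P355829) lies at chr4:88487994-88488053, plus strand, and lists 1 RefSeq transcript, whereas the probes of several other interferon alpha genes list 2 or 3. Whether RNA of the closely related interferon alpha genes binds it was not tested.
Irf7 probe: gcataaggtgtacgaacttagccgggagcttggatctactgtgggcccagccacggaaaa
Ifna4 probe: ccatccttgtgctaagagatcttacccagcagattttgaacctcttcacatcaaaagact

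Levels are given on the log2 scale with the 75th percentile of each array set to 0. Levels of different probes are not compared. A probe passed when its limma p-value, adjusted by Benjamini-Hochberg over the 32430 probes tested, was under 0.05. Fold changes are differences of log2 levels ± SE, with 4 arrays on each side. Where the 4 arrays of a group all lay on one side of the other 4, the exact two-sided permutation test gave p = 0.0286, the smallest that 4 against 4 arrays allow, which became 0.0384 after adjustment over 43 such tests.

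**Figure D1:**
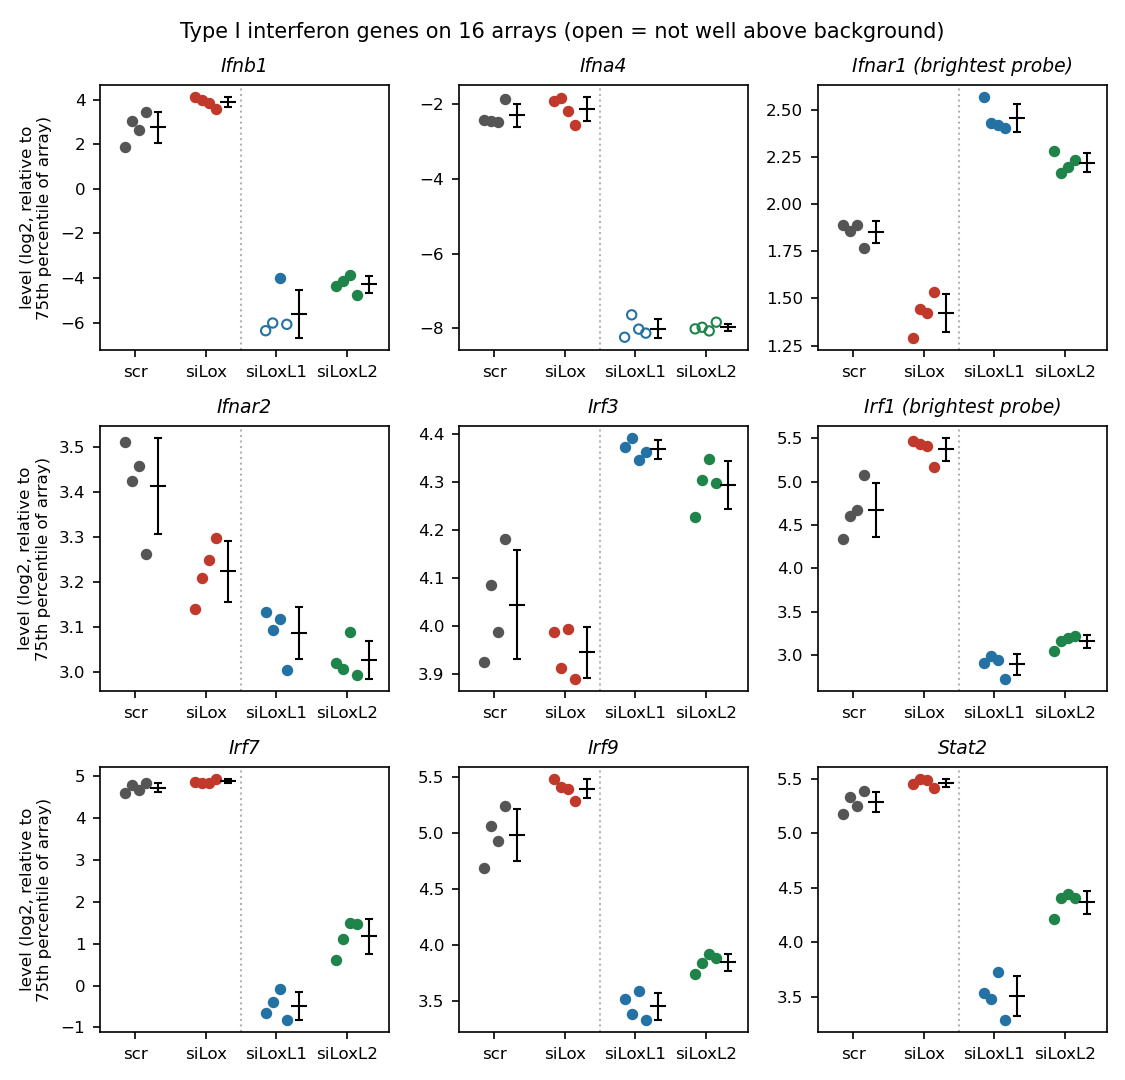
Log2 level of each gene relative to the 75th percentile of its array (vertical axis, a scale of its own in each panel) in the 4 groups; each point is an array, open points were not well above background, the bar is the mean ± SD of 4 arrays and the dotted line parts the slides. Ifnb1, Ifna4, Irf7, Irf9, Irf1 and Stat2 lay lower on every slide 2 array than on any slide 1 array. So did Ifnar2, narrowly (at most 3.13 on slide 2, at least 3.14 on slide 1), whereas Irf3 and the brightest Ifnar1 probe lay higher. For siLoxL1 and siLoxL2 against scr, 4 against 4 arrays, 55.6% and 54.9% of all probes had groups that did not overlap. That is a looser condition, and the share for all slide 2 against all slide 1 arrays was not computed.

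Within slide 1, siLox fibroblasts had more Ifnb1, Irf1 and Irf9 signal than scr fibroblasts and less Ifnar1 signal, the latter on its brightest probe only. In this comparison 4 of 11 probes passed, 3 higher and 1 lower, where 21.1% of all probes tested passed. Within slide 2, siLoxL1 fibroblasts had less Irf7, Stat2 and Irf9 signal than siLoxL2 fibroblasts and more Ifnar1 signal, again on that probe only. There 4 of the 10 probes measured passed, 3 lower and 1 higher, where 6.73% of all probes passed. Between slides, all 11 probes passed in siLoxL1 against scr and 10 of 11 in siLoxL2 against scr, where 62.5% and 62.3% of all probes did.

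Ifnb1 encodes interferon beta, the interferon that fibroblasts are known to make first. Its probe stood at 1.86, 3.05, 2.63 and 3.46 on the scr arrays and at 4.14, 3.96, 3.86 and 3.59 on the siLox arrays. All siLox arrays were above all scr arrays, with scr replicate 4 the nearest to them. The difference was 1.13 ± 0.32, a 2.20-fold higher signal (limma, adjusted p = 0.0436). It passed only narrowly: with all 16 arrays in the fit the adjusted p was 0.0586, and of the 8 fits that each left out 1 array it passed only in that without scr replicate 4, with adjusted p from 0.0154 to 0.107.

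On slide 2 the Ifnb1 probe was near the bottom of the measurable range. It read −6.36, −6.02, −3.99 and −6.08 in siLoxL1, where only replicate 3 was above background, and −4.38, −4.15, −3.87 and −4.75 in siLoxL2, where all 4 arrays were. The groups overlapped through siLoxL1 replicate 3, and the difference of −1.32 ± 0.50 did not pass (limma, adjusted p = 0.148). Without that array it was −1.86 and passed (limma, adjusted p = 0.0142), but the 3 siLoxL1 arrays left were all below background, so the size of that difference was not measured.

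Against scr, Ifnb1 was lower in siLoxL2 by more than any other of the 32430 probes. Its signal there was 0.760% of the scr level, a difference of −7.04 ± 0.45 (SE). In siLoxL1 it was lower than in scr too (limma, adjusted p = 1.5e-09). Since 1 of the 4 siLoxL1 arrays was above background, the fitted difference of −8.36 rests mostly on values below background and is not a measured size. Both comparisons share the scr arrays. The order of levels was siLox, scr and then the slide 2 groups, which overlapped.

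Ifna4 encodes an interferon alpha that cells make early. The probe read −2.42, −2.46, −2.50 and −1.86 in scr and −1.93, −1.84, −2.19 and −2.57 in siLox. These groups overlapped, and their difference of 0.18 ± 0.20 did not pass (limma, adjusted p = 0.550). The difference passed in 0 of the 8 fits that left out 1 array (limma, adjusted p from 0.200 to 0.819). When replicate 4 of both groups was left out, a choice made after seeing the data, it was 0.47 and passed (limma, adjusted p = 0.0264). Those were the highest scr and the lowest siLox array, so their removal widens the difference by construction and this p-value cannot count as support. All 8 arrays of slide 2 were below background for this probe. Ifna4 was thus at least 13.6-fold lower in siLoxL1 and at least 14.5-fold lower in siLoxL2 than in scr. For these bounds a dim array counted at the lowest signal of any probe well above background on it, or at its own value where that was larger.

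The receptor genes moved far less than the interferons. Ifnar1, the chain that carries the kinase TYK2, was measured by 3 probes on mm9 chromosome 16. The brightest (A_55_P2036337, chr16:91510673-91510732, plus strand) read 1.89, 1.86, 1.89 and 1.77 in scr and 1.29, 1.44, 1.42 and 1.53 in siLox. Every siLox array was below every scr array, a difference of −0.43 ± 0.07, or 74.2% of the scr level (limma, adjusted p = 0.0119). This call held in all 8 fits that left out 1 array.

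The same probe read 2.57, 2.43, 2.42 and 2.41 in siLoxL1 and 2.28, 2.16, 2.20 and 2.23 in siLoxL2. It was higher in siLoxL1 by 0.24 ± 0.05 (limma, adjusted p = 0.0375), without overlap between the groups. That call was lost in each of the 8 fits that left out 1 array, with adjusted p from 0.0516 to 0.0904, and in the quantile-normalized values (0.0751). Its order was siLoxL1, siLoxL2, scr and siLox, with no overlap between neighbours.

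The other 2 Ifnar1 probes did not share the calls of the brightest one within slides, although on slide 2 all 3 had higher means in siLoxL1. A_55_P2454784 (chr16:91506635-91506693) differed by −0.03 ± 0.08 between siLox and scr and by 0.06 ± 0.05 between siLoxL1 and siLoxL2, and neither passed (limma, adjusted p = 0.799 and 0.494). A_55_P2438722 (chr16:91503764-91505350) differed by 0.05 ± 0.06 and 0.15 ± 0.06, and neither passed (limma, adjusted p = 0.541 and 0.189). An Ifnar1 call within a slide therefore rests on 1 of 3 probes. Between slides, A_55_P2454784 was higher than scr in both groups, by 0.46 and 0.40, and A_55_P2438722 was higher in siLoxL1 by 0.22, a call lost with normexp (limma, adjusted p = 0.103), and did not pass in siLoxL2.

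Ifnar2 encodes the other receptor chain. Its probe (A_52_P190405, chr16:91394044-91394103, plus strand) read 3.51, 3.43, 3.46 and 3.26 in scr and 3.14, 3.21, 3.25 and 3.30 in siLox, which overlapped. The difference of −0.19 ± 0.07 did not pass (limma, adjusted p = 0.101). In siLoxL1 the levels were 3.13, 3.09, 3.12 and 3.01, and in siLoxL2 they were 3.02, 3.01, 3.09 and 2.99, again with overlap and no call (limma, adjusted p = 0.440). Against scr it was lower in siLoxL1 (−0.33) and in siLoxL2 (−0.39).

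Irf3, the factor that is present before any interferon and is switched on by phosphorylation, read 3.93, 4.09, 3.99 and 4.18 in scr and 3.99, 3.91, 3.99 and 3.89 in siLox, with overlap and a difference of −0.10 ± 0.07 (limma, adjusted p = 0.349). In siLoxL1 it read 4.37, 4.39, 4.35 and 4.36 and in siLoxL2 4.23, 4.30, 4.35 and 4.30, again with overlap (limma, adjusted p = 0.294). It passed as higher than scr by 0.32 in siLoxL1 and 0.25 in siLoxL2, but in the quantile-normalized values these fell to 0.07 and 0.07 and neither passed (limma, adjusted p = 0.273 and 0.291).

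Irf1, an early target of interferon and NF-kB, was higher in siLox. Its brighter probe (A_55_P2000062, chr11:53590746-53590805, plus strand) read 4.34, 4.61, 4.67 and 5.08 in scr and 5.47, 5.44, 5.42 and 5.17 in siLox. The groups did not overlap, and the difference was 0.70 ± 0.16, or 1.62-fold (limma, adjusted p = 0.0238). The call held in 3 of the 8 fits that left out 1 array, those without scr replicate 1 or 4 or siLox replicate 4, with adjusted p from 0.00640 to 0.0672. In siLoxL1 the probe read 2.91, 2.99, 2.94 and 2.72, all below the 3.04, 3.17, 3.19 and 3.22 of siLoxL2, but the difference of −0.26 ± 0.07 missed the threshold (limma, adjusted p = 0.0635) and passed in the quantile-normalized values (0.0418). It was lower than in scr by a log2 difference of −1.78 in siLoxL1 and −1.52 in siLoxL2.

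Irf9, the DNA-binding part of ISGF3, passed in both within-slide comparisons, in opposite directions. It read 4.69, 5.07, 4.93 and 5.24 in scr and 5.48, 5.41, 5.39 and 5.28 in siLox, a difference of 0.41 ± 0.12 (limma, adjusted p = 0.0472). This passed in 1 of the 8 fits that left out 1 array, that without scr replicate 4, with adjusted p from 0.0164 to 0.112. It read 3.52, 3.39, 3.59 and 3.33 in siLoxL1 and 3.74, 3.84, 3.92 and 3.89 in siLoxL2, a difference of −0.39 ± 0.07 (limma, adjusted p = 0.0221). In neither pair did the groups overlap. The slide 2 call held in 4 of the 8 fits and was lost without siLoxL1 replicate 2 or siLoxL2 replicate 2, 3 or 4, with adjusted p up to 0.0677.

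Stat2, which encodes a subunit of ISGF3, read 5.18, 5.34, 5.25 and 5.39 in scr and 5.45, 5.50, 5.49 and 5.42 in siLox. Every siLox array was above every scr array, yet the difference of 0.18 ± 0.07 did not pass (limma, adjusted p = 0.0916). On slide 2 it read 3.53, 3.48, 3.73 and 3.28 in siLoxL1 and 4.21, 4.41, 4.45 and 4.41 in siLoxL2. The siLoxL1 signal was 55.0% of the siLoxL2 signal, a difference of −0.86 ± 0.10 (limma, adjusted p = 0.00702), which passed in all 8 fits that left out 1 array. Against scr the differences were −1.78 in siLoxL1 and −0.92 in siLoxL2.

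Irf7, which drives the interferon alpha genes and is itself a target of ISGF3, showed the widest gap of the set on slide 2 among probes above background on all arrays. It read −0.65, −0.39, −0.07 and −0.83 in siLoxL1 and 0.60, 1.12, 1.48 and 1.48 in siLoxL2. The siLoxL1 signal was 31.8% of the siLoxL2 signal, a difference of −1.65 ± 0.23 (limma, adjusted p = 0.0110), which passed in all 8 fits that left out 1 array. On slide 1 it read 4.60, 4.78, 4.65 and 4.83 in scr and 4.86, 4.84, 4.83 and 4.94 in siLox, and the difference of 0.15 ± 0.07 did not pass although the groups did not overlap (limma, adjusted p = 0.157). Against scr the differences were −5.20 in siLoxL1 and −3.55 in siLoxL2, which is 2.72% and 8.56% of the scr signal.

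For Irf7, Stat2, Irf9 and Irf1 the order of group means was siLox, scr, siLoxL2 and siLoxL1, with no overlap between neighbours. The share of all probes whose groups did not overlap was 28.7% for siLox against scr and 19% for siLoxL1 against siLoxL2.

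**Figure D2:**
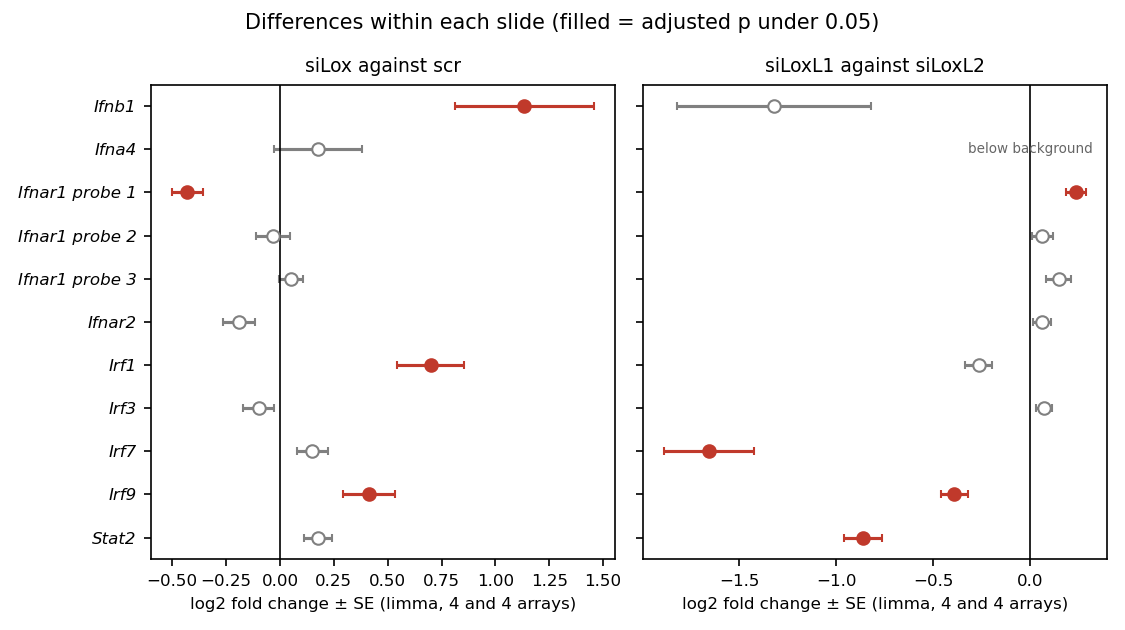
Log2 fold change ± SE (horizontal axis, a scale of its own in each panel) of the 11 tested probes, siLox against scr on the left and siLoxL1 against siLoxL2 on the right, 4 arrays per group; filled points passed at an adjusted p under 0.05, and Ifnar1 probes 1 to 3 are A_55_P2036337, A_55_P2454784 and A_55_P2438722. Ifnb1 (1.13), Irf1 (0.70) and Irf9 (0.41) passed as higher on the left, while Irf7 (−1.65), Stat2 (−0.86) and Irf9 (−0.39) passed as lower on the right.

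The comparisons with scr were made between slides, and 22% and 23.5% of all probes passed as lower and 40.5% and 38.8% as higher in siLoxL1 and siLoxL2. On simulated data the 16-array model passed too many unchanged probes there, so a model of the 8 arrays compared was set beside it. It called 11 of 11 probes (4 higher, 7 lower) in siLoxL1 and 10 of 11 (3 higher, 7 lower) in siLoxL2, the same counts as with 16 arrays. Groups did not overlap for 11 of 11 probes in siLoxL1 and 10 of 11 in siLoxL2, where 55.6% and 54.9% of all probes did not. Over all probes, the median difference from scr was 0.18 in siLoxL1 and 0.16 in siLoxL2.

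Interferon-stimulated genes, the targets of ISGF3, were lower in siLoxL1 than in siLoxL2 almost throughout. Of 46 measured, 43 were lower and 0 higher, with a median of −0.995 against 0.03 for all probes, where 2.32% of all probes passed as lower. Mx1 and Mx2, of a gene family that can block virus replication, differed by −2.78 and −2.01, and Ifit3, another antiviral gene, by −2.02. Trim25 and Ifi27l2a, at −0.34 and −1.09, and Ifi27, at 0.10, did not pass. The mean level of the 46 genes lay between 1.17 and 1.71 on siLoxL1 arrays and between 2.32 and 2.75 on siLoxL2 arrays. With 1 array left out, 31 to 43 genes passed as lower, and with no filter on dim probes 29 did.

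On slide 1 the same list was mixed. In siLox, 9 of 46 genes were higher and 4 lower than in scr, with a median of 0.05 against −0.05 for all probes, where 9.67% of all probes passed as higher and 11.5% as lower. Mx1 was higher by 1.26, Mx2 by 1.11 and Oas3, which makes the activator of RNase L, by 0.69. Rsad2, another antiviral target, was lower (−0.62). With 1 array left out, between 2 and 12 genes were higher and between 1 and 5 lower; the 2 came without scr replicate 3 or siLox replicate 1, 2 or 3, and without scr replicate 2 the count was 3.

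Against scr, 45 of 46 targets were lower and 1, Ifi27, was higher in each group of slide 2. Of all probes, 22% and 23.5% passed as lower and 40.5% and 38.8% as higher in siLoxL1 and siLoxL2. The medians of the targets were −3.25 in siLoxL1 and −2.29 in siLoxL2, against 0.18 and 0.16 for all probes. The 2 comparisons share the scr arrays, and siRNA and slide cannot be told apart in either.

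**Figure D3:**
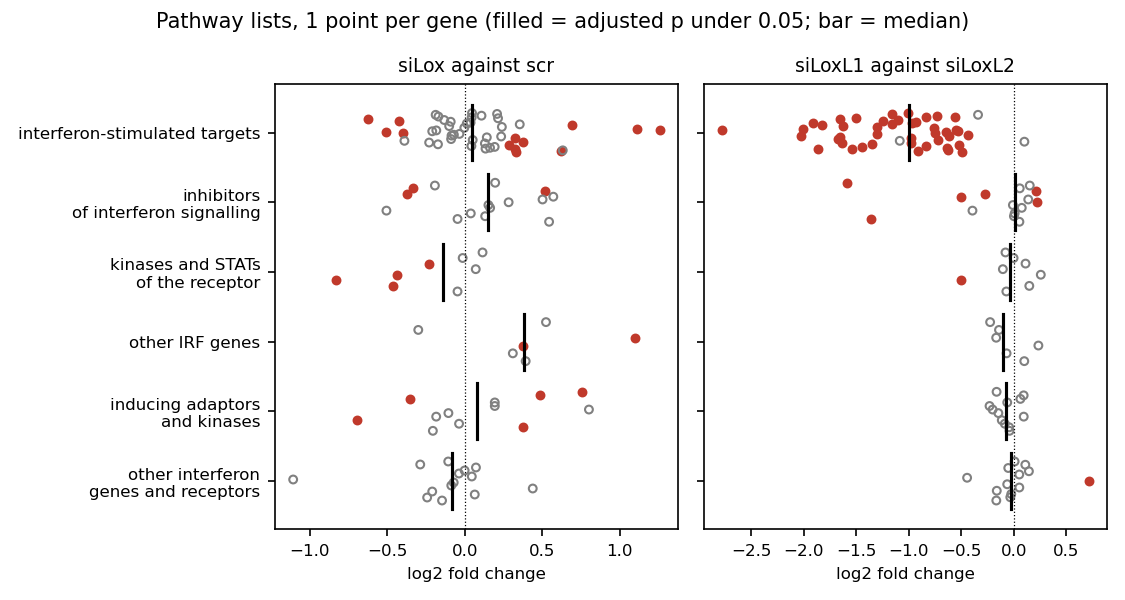
Log2 fold change (horizontal axis, a scale of its own in each panel) of each gene of 6 pathway lists, siLox against scr on the left and siLoxL1 against siLoxL2 on the right; filled points passed at an adjusted p under 0.05 and bars are medians. Among interferon-stimulated targets 43 of 46 passed as lower on the right, against 9 higher and 4 lower on the left.

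A list of kinases and STATs of cytokine receptors, not of the interferon receptor alone, did not rise with Irf9 in siLox. Of 8 genes measured, 4 were lower and 0 higher than in scr, where 11.5% of all probes were lower and 9.67% higher. The 4 became 1 to 3 with 1 array left out. Among them Jak2, a cytokine receptor kinase, differed by −0.46 and Stat3 by −0.44.

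Among 15 inhibitors of interferon signalling, 4 were lower and 2 higher in siLoxL1 than in siLoxL2, where 2.32% of all probes were lower and 4.41% higher. With 1 array left out, 2 to 3 were lower and 0 to 1 higher, and 0 were higher in the quantile-normalized values, the authors' table, the fit with no filter and the fit of 16 arrays. Those with the widest differences were Usp18, which removes ISG15 and blocks IFNAR2, at −1.58, Isg15, at −1.36, and the phosphatase Ptpn6, at −0.50. Usp18 and Isg15 are also induced by interferon. In siLox, 1 of 15 was higher than in scr, Socs2 by 0.52, and 2 were lower, Socs1 (−0.37) and Socs3 (−0.33), and with 1 array left out 0 to 7 were higher and 0 to 2 lower. The Socs3 call was lost in the quantile-normalized values. In siLox Usp18 and Isg15 differed from scr by 0.20 and −0.05, and neither passed (limma, adjusted p = 0.0766 and 0.645); the sign of Isg15 turned in the quantile-normalized values.

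Of 12 adaptors and kinases that induce interferon, 3 were higher and 2 lower in siLox than in scr, where 9.67% and 11.5% of all probes were; with 1 array left out these became 1 to 4 higher and 1 to 2 lower. Traf6 and Traf3, ubiquitin ligases of this signalling, were higher by 0.75 and 0.48, and the kinase gene Irak4 was lower (−0.69). In siLoxL1 against siLoxL2, 0 of the 12 passed, where 6.73% of all probes did. Of 6 other IRF genes, Irf5 was higher in siLox by 1.10 and Irf2bp2, which encodes a binding partner of IRF2, by 0.38. In siLoxL1 against siLoxL2, 0 of these 6 passed. Lists this short cannot tell 0 from the 6.73% of all probes. With 1 array left out, 0 to 5 of the 6 were higher and 0 to 1 lower in siLox. Of the list genes named here, Oas3, Traf6 and Irak4 in siLox against scr and Usp18, Isg15, Ifit3 and Mx2 in siLoxL1 against siLoxL2 kept their calls in every fit that left out 1 array. Mx1, Mx2, Jak2, Stat3, Traf3, Irf5, Irf2bp2, Socs1, Socs2 and Socs3 in siLox, and Mx1 and Ptpn6 in siLoxL1, lost them in at least 1 such fit. Against scr, Irf5 was lower in siLoxL1 (−4.27) and in siLoxL2 (−4.10).

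Some markers of other cells differed between groups too. The leukocyte list summed to 4.61 to 4.92 (log2) in scr, 4.74 to 5.01 in siLox, 5.13 to 5.24 in siLoxL1 and 5.25 to 5.37 in siLoxL2. This sum weights bright genes: the mean log2 level over the list was −0.70 to 0.25 in scr, 0.085 to 0.37 in siLox, −0.046 to 0.097 in siLoxL1 and −0.028 to 0.14 in siLoxL2. Against scr, 4 of 11 leukocyte markers were higher and 2 lower in siLoxL1, and 3 higher and 1 lower in siLoxL2. Of all probes, 40.5% and 38.8% passed as higher there and 22% and 23.5% as lower, so the list did not stand out. In siLox against scr, 1 of 11 leukocyte markers was higher, Marco by 1.08, and 3 of 9 fibroblast markers were lower. Of all probes, 9.67% passed as higher and 11.5% as lower. With 1 array left out, 1 to 7 leukocyte markers were higher, the 7 without scr replicate 4, and 0 to 6 fibroblast markers were lower. The median difference was 0.45 for the leukocyte list and −0.46 for the fibroblast list, against −0.05 for all probes. In siLoxL1 against siLoxL2, 0 of either list passed, where 6.73% of all probes did. Of the 5 plasmacytoid dendritic cell markers 3 were measured, with a sum of 6.24 to 6.41 in scr and 5.91 to 6.30 in siLox. This sum was 6.67 to 6.88 in siLoxL1 and 6.64 to 6.73 in siLoxL2. Their mean log2 level was 3.14 to 3.49 in scr and 2.62 to 3.19 in siLox. It was 3.29 to 3.43 in siLoxL1 and 3.44 to 3.56 in siLoxL2, so both slide 2 groups overlapped scr. Against scr, 2 were higher and 1 lower in siLoxL1, and 2 higher and 0 lower in siLoxL2. Klk1 was below background on every array. Ccr9 was above background on 3 siLoxL1 and 2 siLoxL2 arrays and on 0 arrays of slide 1. Krt18 was lower than in scr in siLoxL1 (−3.29) and siLoxL2 (−3.41). Of 5 endothelial markers, 3 were lower against scr in each slide 2 group (Pecam1, Cdh5 and Emcn) and 1 was higher, Tek. Of all probes, 22% and 23.5% were lower and 40.5% and 38.8% higher in siLoxL1 and siLoxL2. Emcn averaged −3.97 in scr and was above background on 1 siLoxL1 array and 0 siLoxL2 arrays, where it was at least 4.59-fold lower. Tek was above background on 0 scr, 0 siLox, 3 siLoxL1 and 4 siLoxL2 arrays, so it was tested only because of siLoxL2. The size of its difference from scr was therefore not measured. Tek was also lower in siLoxL1 than in siLoxL2 (−0.86), where 0 to 1 endothelial markers passed as lower with 1 array left out. The part of these cells in the results was not tested.

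Genes whose levels ran most like those of Irf7 and Stat2 were sought over the 8 arrays of each slide, among 14330 genes, by the smaller of the pair of Pearson correlations. For Irf7 these were Oasl1 (r = 0.949 and 0.977 on slides 1 and 2), Tapbp (0.955 and 0.947), Ddx58 (0.931 and 0.990) and Oas1a (0.929 and 0.994). For Stat2 they were Rtp4 (r = 0.981 and 0.984), Ddx58 (0.978 and 0.989), Irf9 (0.975 and 0.984) and Oas1c (0.975 and 0.976). The points share arrays, and the group differences enter the correlations.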

How the data were processed

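RNA of 16 samples, 4 per group, was labelled with Cy3 and read on one-colour Agilent arrays. Per the file headers, the intensity of each spot was extracted with Agilent Feature Extraction 10.7.3.1, which subtracted background and detrended within the array. The deposited flags, 0 or 1 per spot, mark other properties such as outliers. The authors' value table holds log2 values, quantile normalized between arrays as a comparison of its sorted columns showed (largest difference 0.000965); its column median was 4.83.

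Spots flagged as outliers were left out, and log2 signals were taken relative to each array's 75th percentile (8.67 to 9.03 on slide 1, 9.74 to 9.90 on slide 2). Of 55681 non-control probes, 32476 were well above background on all 4 arrays of a group; 46 of these lacked a usable spot, leaving 32430. No spot was saturated. Gene names are those of the array; the accessions of all 12 probes of the set carry the same symbols in RefSeq (GRCm38.p6). Probe positions are in mm9.

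Tests used limma 3.58.1 in R 4.3.3. Comparisons within a slide used its 8 arrays, since the spread differed between slides (median SD 0.183 in scr and 0.145 in siLox, 0.100 in siLoxL1 and 0.0979 in siLoxL2); comparisons between slides used all 16. On simulated data the fit of 16 arrays called too many unchanged probes in every comparison with scr, and the fit of 8 arrays came closer to the nominal rate without fully reaching it, so calls near the threshold are the least certain. Lists are described by counts and medians, with the brightest tested probe for each gene. Named are the 9 genes, up to 3 passing genes of largest fold per list and within-slide comparison, Usp18, Isg15, the targeted genes and the 4 genes most like Ifnb1, Irf7 and Stat2; Rsad2, Trim25, Ifi27, Ifi27l2a, Marco, Krt18, Scgb1a1, Ccr9, the endothelial markers, Ifngr1, Il10rb and the other interferon alpha genes were named after their values were seen. One gene that this rule names is not reported here. The genes and lists were chosen with earlier results of these data known. Alternatives were normexp with an offset of 50, quantile normalization, the authors' table, other filters and fits, a replicate block, 1 probe per gene and each array left out.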

Additional observations from a re-analysis of the deposited data

Results flagged for a closer look

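Among the 44 sets of 4 arrays examined, 4 held an array whose gap to its nearest neighbour, as a share of the set's range, exceeded Dixon's critical value; chance gives about 1 in 20 such sets. Ifnb1 in siLoxL1 replicate 3 read −3.99, the highest of its group and the only one above background. Ifna4 in scr replicate 4 read −1.86, the highest of its group. The brightest Ifnar1 probe in siLoxL1 replicate 1 read 2.57, also the highest. Stat2 in siLoxL2 replicate 1 read 4.21, the lowest of its group.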

How the results depend on the processing

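In siLox against scr the 4 calls in the set became 1 with no filter on dim probes, and over all probes 6851 calls became 2623 with no filter and 12844 in the fit of all 16 arrays. Leaving out 1 array gave 1 to 6 calls in the set and 1745 to 9937 over all probes. In siLoxL1 against siLoxL2 the 4 calls in the set became 2 with no filter, and the 2182 calls over all probes (1429 higher) became 3551 with normexp (2116 higher), 412 with no filter (172 higher), 3364 over probes above background on all 16 arrays (2357 higher) and 1033 in the fit of all 16 arrays (614 higher). Leaving out 1 array gave 2 to 4 and 564 to 1320. Against scr, 20253 calls in siLoxL1 became 34690 with no filter (13230 higher, against 13122), and 20204 in siLoxL2 became 34254 (12673 higher, against 12597). For siLoxL1 and siLoxL2 against scr the share of higher calls was 54.9% and 52.8% in quantile-normalized values. The cause of these changes was not tested.

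Same-numbered arrays had r from −0.15 to −0.0036 on slide 1. On slide 2, replicates 1 to 3 each correlated best with their own number (r of 0.108, 0.203 and 0.114), a hint of pairing from the data, and replicate 4 had 0.039. Since not every pair exceeded 0.1, the numbers were not taken as pairs. With the replicate number as a block, siLox against scr kept 0 calls in the set (limma; 4 at an unadjusted p under 0.05) and 0 over all probes (9671 unadjusted), and siLoxL1 against siLoxL2 kept 2 and 515.

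Differences that changed sign were small and did not pass: Ifnar1 probe A_55_P2454784 in siLox against scr without scr replicate 3 (−0.080 to 0.017 with 1 array left out), Irf3 in siLoxL1 against siLoxL2 with normexp (−0.030), and Ifnar1 probe A_55_P2438722 in siLoxL2 against scr after quantile normalization (−0.0024) and in the authors' table (−0.0041). Arrays left out in siLox against scr ended the Ifnb1, Irf1 and Irf9 calls; Irf7 and Stat2 on slide 2 kept theirs. Signals near background limit Ifnb1 and Ifna4 on slide 2, and 4 arrays per group limit the precision throughout.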

Other observations

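Of 14 other interferon and receptor genes, 7 were lower and 4 higher in siLoxL1 than in scr, and 8 lower and 3 higher in siLoxL2. Over all probes, 22% and 23.5% passed as lower and 40.5% and 38.8% as higher. Among the higher were the receptor genes Ifngr1 (0.59 and 0.54) and Il10rb (0.17 and 0.16). Against scr, Ifna13 was lower in siLoxL1 (−1.80) and siLoxL2 (−1.77), as were Ifna5 (−1.40 and −1.34), Ifna2 (−1.17 and −1.22) and Ifna1 (−0.72 and −0.55), and all 4 genes were above background on every array of the 3 groups. Ifna16, like Ifna4, was below background on all slide 2 arrays and was at least 3.48-fold and at least 3.55-fold lower. Within slides, 0 of 14 other interferon and receptor genes passed in siLox against scr, where 21.1% of all probes did. In siLoxL1 against siLoxL2, 1 of 13 measured passed, Ifna7, which is near the 6.73% of all probes. Its signal was at least 1.58-fold higher in siLoxL1, and 0 siLoxL2 arrays were above background (limma, adjusted p = 0.0394). With 1 array left out, 0 to 1 of the list passed as higher. With normexp, with no filter on dim probes and in the fit of all 16 arrays, 0 did. The Ifna7 probe lists 2 RefSeq transcripts.

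By the smaller of the pair of correlations, the genes most like Ifnb1 were not among the interferon lists. They were Kcnq5 (r = 0.963 and 0.914 over the 8 arrays of slides 1 and 2), Ttll2 (0.904 and 0.878), Zfp938 (0.984 and 0.873) and Tmem117 (0.884 and 0.863). The Ifnb1 values on slide 2 include 3 siLoxL1 arrays below background. On slide 1 the correlation of Ifnb1 was 0.999 with Irf9, 0.974 with Stat2, 0.963 with Irf1 and 0.884 with Irf7. On slide 2 these were 0.787, 0.796, 0.657 and 0.773. Ifna4 had 0.607 on slide 1, Irf3 0.043, Ifnar2 −0.954 and the brightest Ifnar1 probe −0.874. The group differences enter all of these values.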
